A study of Macrobrachium rosenbergii with 32 samples.

Results

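At the Mr-cofilin cut-site of the giant freshwater prawn Macrobrachium rosenbergii, 1296 of the 4187 distinct alleles held substitutions only. These alleles were chosen as those that aligned over 40 columns around the cut with no gap in the read or in the reference and with at least 1 mismatched base. They made up 19656 of 832750 gap-free reads in 32 libraries. All 120 possible single substitutions of the 40 columns were among them, beside 977 alleles with 2-3 mismatches and 199 with 4 or more. The measurement was amplicon sequencing of genomic DNA from embryonic primary cell cultures, in 16 nucleofection experiments.

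Each experiment had a positive control, wild-type cells nucleofected with the Mr-cofilin sgRNA as a Cas9 ribonucleoprotein, and a negative control, wild-type cells nucleofected without an sgRNA. Whether the sgRNA-free cells received Cas9 was not given in the sources used here. Cells came from embryos of 10 to 14 days, and DNA was taken 72 h after nucleofection. The eggs of an experiment came from a single female, so both of its libraries shared a brood, and the cells of 1 library are a mixture from many embryos. Nothing in the labels described more than 1 culture per condition and experiment, so the 16 experiments were the replicates.

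Cofilin is an actin-binding protein that severs and disassembles actin filaments, and is needed by nearly all animal cells for movement and division. Cas9 cuts both DNA strands 3 bases from the PAM, a short motif that the enzyme must find beside the sequence matched by the sgRNA. Cells usually rejoin such a break by end joining, which leaves the sequence intact or gains or loses bases. A copy that was never cut, one rejoined with its length kept, a variant carried by the parents and an error of PCR or sequencing all give reads without a gap.

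The guide lay on the plus strand of scaffold 867, at bases 8770 to 8789, with its PAM at bases 8790 to 8792, as found by matching the sequence to the study's copy of the region. The gene runs along the minus strand. The site lay in the 3′ UTR of the automated Maker model, bases 5712 to 8862, and 79 bases from the last exon of the manually curated model, bases 8869 to 8931. The amplicon covered bases 8679 to 8923, which is 245 nt. Columns were counted from 1 to 40 in gene orientation. The cut fell between columns 20 and 21, the PAM took columns 15 to 17 and the protospacer columns 18 to 37. A substitution is written with the reference base, its column and the base found. Since each read of a pair had 150 bases, columns 1 to 33 lay within both reads of a pair, and columns 34 to 40 within 1 read only.

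The sequences that carried the results are shown for columns 11 to 40 (scaffold 867, bases 8767 to 8796, minus strand). The guide and its PAM are given first on their own plus strand, bases 8770 to 8792, with the PAM in capitals. In the reference the capitals mark the 7 bases right of the cut, columns 21 to 27. In each allele they mark the mismatched bases.
guide and PAM: catatgactagctggccacaGGG
reference: accgccctgtGGCCAGCtagtcatatgtgg
G22C_C23T_C24G_A25G_G26C: accgccctgtgCTGGCctagtcatatgtgg
C24T_A25G: accgccctgtggcTGgctagtcatatgtgg
G22A_C24T_A29G_T31C: accgccctgtgAcTagctGgCcatatgtgg
C23G: accgccctgtggGcagctagtcatatgtgg
C13T: acTgccctgtggccagctagtcatatgtgg
G14A: accAccctgtggccagctagtcatatgtgg
G40T: accgccctgtggccagctagtcatatgtgT

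The positive control libraries held 9532 to 33454 gap-free reads (median 19140.5), and the negative control libraries 17459 to 54322 (median 30022.5). Reads with a gap made up 21.6% to 54.9% of the aligned reads in positive controls and 0.0253% to 1.70% in negative controls, the highest being experiment 15. At this depth, 3 reads, the limit that a count of 0 allows, were 0.00897% to 0.0315% of the gap-free reads in positive controls and 0.00552% to 0.0172% in negative controls. Tables of experiments 4 to 7 were written in the other orientation and were turned. Libraries of the turned and the unturned tables are named reverse and forward here. Read counts come from PCR products without molecular identifiers, so intervals and limits cover counting error only.

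Among gap-free reads, a larger share held a substitution in positive controls. This share was 3.00% ± 0.796 in positive controls and 2.13% ± 0.442 in negative controls (SD, n = 16 each). It spanned 1.82% to 5.47% (median 2.94%) in positive controls and 1.56% to 2.93% (median 2.03%) in negative controls, so the groups overlapped. The difference of 0.873 percentage points passed a two-sided permutation test (p = 0.0002), and the share was higher in the positive control of 15 of 16 experiments. The direction depended on the denominator. Out of all aligned reads, reads with a gap included, the difference was -0.347 points and the call was lost (p = 0.0776). Alleles with substitutions only hold no gap, so this denominator by itself lowers the share in positive controls, where more reads had a gap. In the 12 forward experiments the difference was 1.01 points (permutation p = 0.00028). In the 4 reverse experiments it was 0.469 points, which an exact permutation test did not separate from 0 (p = 0.286).

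The classes by number of mismatches did not share this difference equally. Reads with 1 mismatch were 2.18% ± 0.608 of gap-free reads in positive controls and 1.91% ± 0.359 in negative controls (permutation test with Benjamini-Hochberg adjustment over 3 classes, adjusted p = 0.221, higher in 11 of 16 experiments). Reads with 2-3 mismatches were 0.224% ± 0.174 in positive controls and 0.192% ± 0.0835 in negative controls, and their order was split evenly, 8 experiments each way (adjusted p = 0.586). Neither difference was steady. Without experiment 11 it was 0.133 points for 1 mismatch, in place of 0.264, and -0.00556 points for 2-3 mismatches, in place of 0.0321. In the 20 columns nearest the cut both classes passed, at 0.272 points (adjusted p = 0.00213) and 0.0442 points (adjusted p = 0.00528), and out of all aligned reads 1 mismatch was lower in positive controls, by -0.610 points (adjusted p = 0.0006). Reads with 4 or more mismatches were 0.597% ± 0.316 in positive controls and 0.0195% ± 0.0170 in negative controls, 30.5-fold apart. This was the class that passed the test, 1 of 3 (33.3% of the classes tested; adjusted p = 6e-05). It was higher in the positive control of 15 of 16 experiments, and the exception was experiment 8, whose positive control held 0 such reads of 11710, which allows a share of up to 0.0256%.

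**Figure D1:**
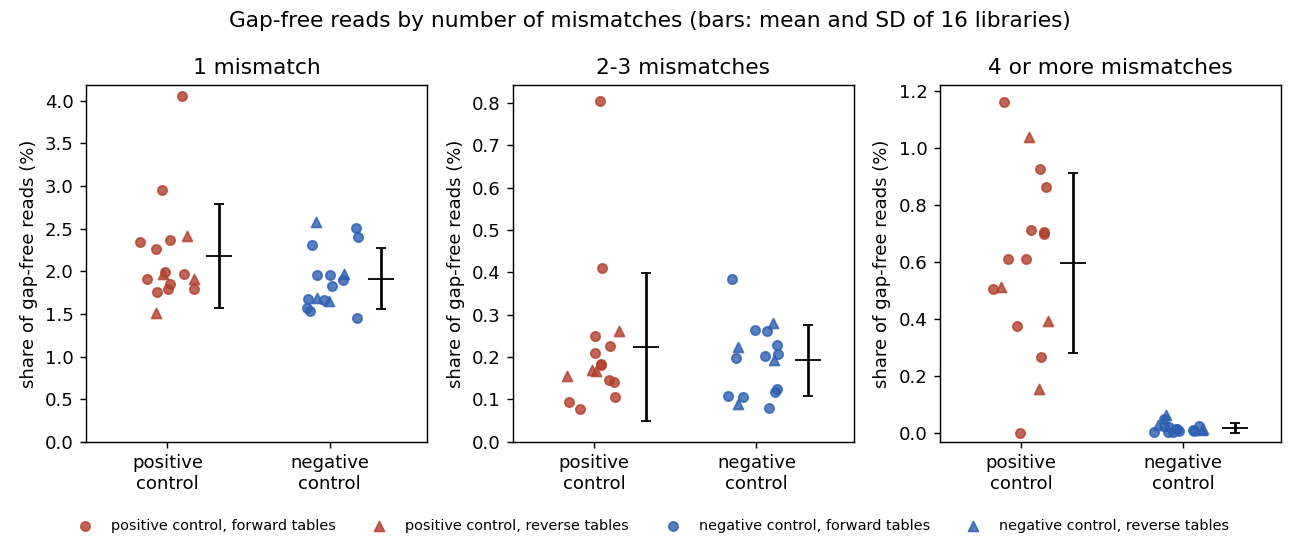
Share of gap-free reads (%) with 1, 2-3 and 4 or more mismatches, for the positive and negative control libraries. Each point is 1 library, round for forward and triangular for reverse tables, and the bar gives the mean and SD of 16 libraries. The first 2 panels overlap, while in the third every positive control but that of experiment 8, at 0, lies above the highest negative control, at 0.0639%.

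The reads with 4 or more mismatches were mostly copies of 1 allele. In positive controls 1648 of the 1779 such reads (92.6%) had columns 22 to 26 inverted, that is, replaced by their own reverse complement, and 1599 of these were the 5-mismatch allele G22C_C23T_C24G_A25G_G26C with no further change. In negative controls 3 of 88 such reads had it. Read as an inversion, the allele matches columns 22 to 26 and equally columns 21 to 27, because bases 21 and 27 are complementary, and the longer stretch of 7 nt begins at the cut. In its letters it equally matches a gain of GCT at the cut together with the loss of AGC, the last 3 bases of that stretch. Which of these took place was not tested, and inverted here describes the letters only. The alignment of the deposited tables writes it as 5 substitutions.

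This allele took 0.536% ± 0.294 of the gap-free reads in positive controls and 0.000613% ± 0.00175 in negative controls (SD, n = 16 each). Among positive controls it was found in 15 of 16 libraries, at 0% to 1.10% (median 0.507%). Experiments 3 (1.10%, 95% Wilson interval 0.963% to 1.26%), 4 (0.944%) and 15 (0.854%) were the highest. Experiment 5 had the lowest share above 0 (0.143%, interval 0.107% to 0.191%). Among negative controls 14 of 16 libraries had no read of it, experiment 12 had 1 read and experiment 15 had 2. The groups did not overlap except for experiment 8, and the intervals of the highest and lowest of the other positive controls were apart. Each experiment had 1 such library, so brood, culture and library preparation cannot be told apart. The negative control of experiment 15 was also the one with 1.70% of reads with a gap, against at most 0.0983% in the other 15 negative controls, and the part this played in its 2 reads was not tested.

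Shorter and longer inversions were looked for among all 548 distinct alleles that an inversion of 4 nt or more within the window could give. Besides the main allele, 4 were seen. C24T_A25G equals an inversion of up to 6 nt, columns 22 to 27, and had 31 reads in 9 positive controls and none in negative controls. G22A_C24T_A29G_T31C equals one of columns 22 to 31, right of the cut, and equally one of up to 14 nt, columns 20 to 33, across it. This allele had 20 reads in 8 positive controls and none in negative controls. C16A_T18A_T20G equals one of columns 16 to 20, which ends at the cut, and equally one of up to 7 nt, columns 15 to 21, across it. It had 8 reads in 5 positive controls and none in negative controls. C24T_A29G was seen as 1 read of 1 negative control. Each of the first 3 was seen in several broods, at means of 0.0114%, 0.00783% and 0.00257% of the gap-free reads in positive controls, in the order given. These alleles were singled out after their values were seen and were not tested.

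Close relatives of these sequences made up further named alleles. C24T_A25G_T28C, which in its letters is C24T_A25G with 1 more mismatch, had 23 reads in 7 positive controls and 0 reads in negative controls. G22T_C23T_C24G_A25G_G26C had 9 reads in 6 positive controls and 0 reads in negative controls. C23T_C24G_A25G_G26C had 8 reads in 4 positive controls and 1 read in the negative control of experiment 15. The main allele with G39T added had 4 reads in 4 positive controls and 0 reads in negative controls. Once reads with columns 22 to 26 inverted were set aside, 131 reads with 4 or more mismatches were left in positive controls and 85 in negative controls, at means of 0.0455% ± 0.0464 of the gap-free reads in positive controls and 0.0189% ± 0.0169 in negative controls. The class then no longer passed the test (difference 0.0265 points, adjusted p = 0.0666), and 36 of the 131 reads came from experiment 11. The 131 reads still held the 20 of G22A_C24T_A29G_T31C, the 9 of G22T_C23T_C24G_A25G_G26C and the 8 of C23T_C24G_A25G_G26C. The remainder was thus not free of alleles that in their letters equal an inversion or lie close to one.

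Among the 120 single substitutions, the base change C23G stood alone. It sits on the third base right of the cut, inside the protospacer. Positive controls had it in all 16 libraries, at 0.0408% to 1.01% (median 0.144%), and negative controls in 13 of 16 libraries, at 0% to 0.0162%. The lowest positive control, experiment 1, was thus above the highest negative control, and the groups did not overlap. Means were 0.199% ± 0.235 in positive controls and 0.00601% ± 0.00493 in negative controls (SD, n = 16 each), 33.01-fold apart. It was the single allele that passed the permutation test, 1 of 120 (0.833% of the alleles tested; p = 2e-05, the smallest that the permutations can give, adjusted p = 0.0024), and was higher in the positive control of 16 of 16 experiments. In the reverse experiments alone, the exact test gave p = 0.0286, the smallest that 4 against 4 can give, and the adjusted p was 0.879.

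None of the other single substitutions passed in either direction, and with C23G 5 of 120 were higher and 0 lower in positive controls at an unadjusted p under 0.05. The next by p was G5A, 16 bases left of the cut, at 0.0123% in positive controls and 0.00809% in negative controls (permutation p = 0.0192, adjusted p = 0.688). The other changes of the same base were near level in the groups. C23T was at 0.0387% ± 0.0152 in positive controls and 0.0400% ± 0.0124 in negative controls, and C23A averaged 0.0285% in positive controls and 0.0273% in negative controls. In its letters C23G equals an inversion of 3 nt, columns 22 to 24, and equally the loss of a C together with the gain of a G in the adjoining runs. Of the 120 single substitutions, 10 equal an inversion of 2 to 5 nt. The other 9, of which G22C is the nearest to the cut on its right side (0.00889% in positive controls, 0.00620% in negative controls), did not pass the test.

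**Figure D2:**
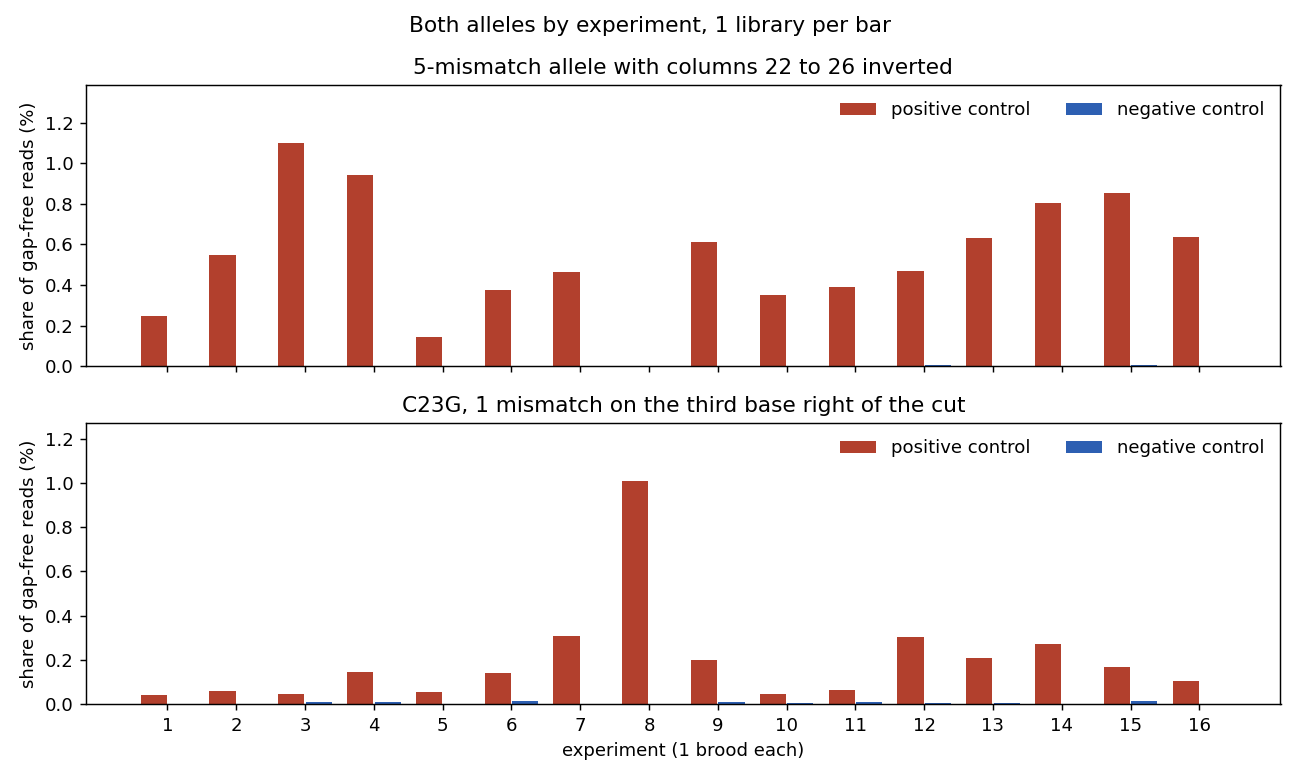
Share of gap-free reads (%) with the 5-mismatch allele (upper panel) and with C23G (lower panel) in each of the 16 experiments, with the positive control bar left of the negative control bar. The positive control of experiment 8 has no 5-mismatch allele and the highest C23G share, 1.01%.

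Experiment 8 stood apart in both alleles. Its positive control had 118 C23G reads of 11710 (1.01%, interval 0.842% to 1.21%), above every other library, the next being the positive controls of experiment 7 with 0.308% (interval 0.254% to 0.373%) and experiment 12 with 0.304%. It also had the highest share of T18C, the third base left of the cut, with 52 reads (0.444%, interval 0.339% to 0.582%), against a median of 0.0516% over the positive controls and 0.0573% in the negative control of the same brood. Its share of reads with a gap, 50.1%, lay within the range of the other positive controls. With experiments 8 and 11 both left out, C23G still passed (adjusted p = 0.0024).

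By column, reads with 1 mismatch were more frequent in positive controls at 1 of 40 positions (2.5% of the positions tested), and at none less frequent. This was column 23, with 0.266% ± 0.226 of gap-free reads in positive controls and 0.0732% ± 0.0255 in negative controls (permutation test, adjusted p = 0.0008). Per base, the 3 columns on each side of the cut had 0.0880% ± 0.0494 in positive controls and 0.04998% ± 0.0122 in negative controls (adjusted p = 0.00024, higher in 16 of 16 experiments), the only zone of 4 to pass (25%). The PAM had 0.0409% in positive controls and 0.0340% in negative controls (adjusted p = 0.244). The rest of the protospacer had 0.0385% in positive controls and 0.0365% in negative controls (adjusted p = 0.763), and the columns outside both had 0.0582% in positive controls and 0.0589% in negative controls (adjusted p = 0.948). With C23G left out, the zone around the cut did not pass (difference 0.00591 points per base, adjusted p = 0.492), an alternative chosen after seeing the data. Counted instead as mismatched bases of all gap-free reads, columns 22 to 26 and 28 passed, and so did 2 zones.

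**Figure D3:**
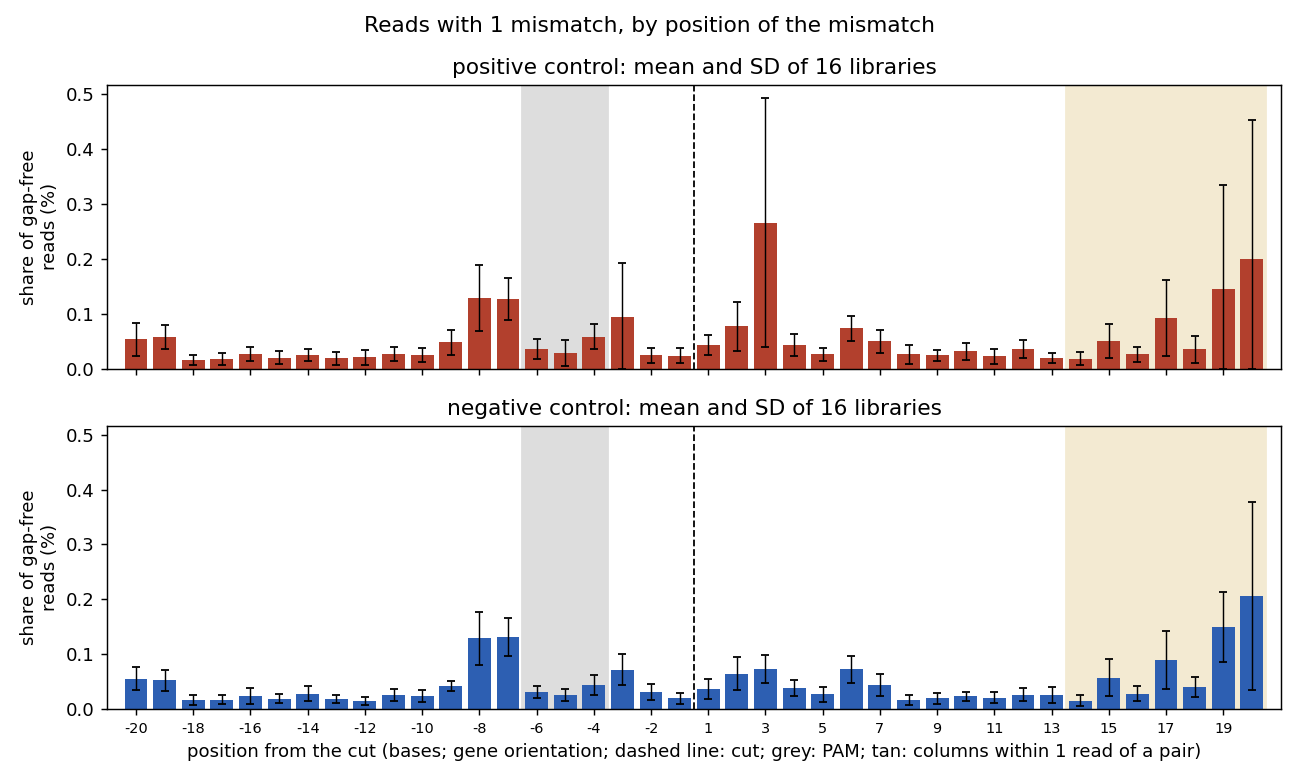
Share of gap-free reads (%) with a single mismatch at each of the 40 columns, placed by distance from the cut, for positive controls (upper panel) and negative controls (lower panel). Bars are means of 16 libraries with their SD, cut off at 0, the dashed line is the cut, grey marks the PAM and tan the columns within 1 read of a pair. The bar of the third base right of the cut is 0.266% in positive controls and 0.0732% in negative controls, while the other columns follow the same outline in both panels.

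Among reads with 1 mismatch, C to G was the only type of 12 to pass (8.33% of the types tested). It had 0.232% ± 0.230 of gap-free reads in positive controls and 0.0340% ± 0.0138 in negative controls (permutation test, adjusted p = 0.00024, higher in 16 of 16 experiments). Over mismatched bases of all gap-free reads, 4 types passed. Without C23G the remaining C-to-G reads differed by 0.00520 points (adjusted p = 0.681). Frequent types were near level in the groups. G to T had 0.453% ± 0.466 in positive controls and 0.417% ± 0.224 in negative controls (adjusted p = 0.946). G to A had 0.337% ± 0.0913 in positive controls and 0.376% ± 0.0977 in negative controls (adjusted p = 0.614), and C to T had 0.312% ± 0.0786 in positive controls and 0.306% ± 0.0747 in negative controls (adjusted p = 0.946). Transitions, the exchanges of A with G or C with T, were 45.2% ± 8.71 of the 1-mismatch reads in positive controls and 49.6% ± 7.78 in negative controls.

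**Figure D4:**
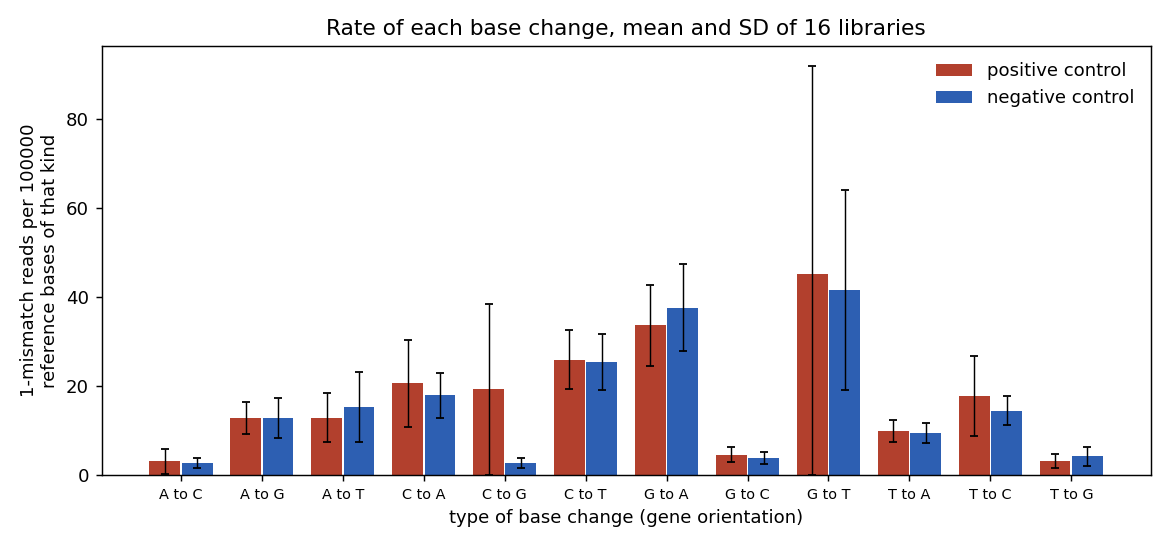
Reads with 1 mismatch per 100000 reference bases of the kind changed, for each of the 12 types of base change, positive control bars left of negative control bars. Bars are means of 16 libraries with their SD, cut off at 0. C to G differs between the groups, and the wide SD of G to T in positive controls comes with experiment 11.

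The inverted stretch and C23G together held most of the difference between the groups. With alleles holding the inverted columns left out, the difference in the share with at least 1 mismatch was 0.323 points (permutation p = 0.159), and with C23G left out too it was 0.130 points (p = 0.652), in place of 0.873 points. Both alternatives were chosen after seeing the data.

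What remained was found in both groups and is best described in the negative controls, which had no sgRNA. There, 44 of the 120 single substitutions were present in all 16 libraries, against 24 in all 16 positive controls, which had fewer gap-free reads. The median single substitution had a mean of 0.01005% in negative controls, and the highest share of any in any negative control was 0.458%. The 10 most frequent fell into a few places. G40T (0.138% ± 0.129), G39T (0.109% ± 0.0628), G40A (0.0609% ± 0.0513) and G37T (0.0561% ± 0.0352) lay in the columns within 1 read of a pair. C13T (0.111% ± 0.0454) and G14A (0.109% ± 0.0355) were the 2 transitions of the only CG dinucleotide of the window. G26A (0.0553% ± 0.0229), T18C (0.0426% ± 0.0168), C23T (0.0400% ± 0.0124) and C1A (0.0363% ± 0.0117) completed the list (SD, n = 16 each).

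Columns 34 to 40, at the far end of the window from the PAM, held on average more 1-mismatch reads per column than the 33 columns within both reads. In positive controls the shares were 0.0810% ± 0.0739 per column there and 0.0488% ± 0.00812 in the others, with 13 of 16 libraries higher. In negative controls they were 0.0841% ± 0.0391 and 0.0402% ± 0.00573, with 16 of 16 libraries higher. The rise was not shared by all of these columns. In negative controls columns 37, 39 and 40, where the reference base is G, had 0.0892%, 0.149% and 0.207%, and column 35 had 0.0579%. Columns 34, 36 and 38 had 0.0160%, 0.0285% and 0.0409%, near or below the mean of the columns within both reads. Position in the window and coverage by 1 read cannot be told apart here, and the part of the reference base was not tested. Columns 34 to 40 also varied most between libraries. Summed over them, 1-mismatch reads were 0.250% to 2.41% of gap-free reads in positive controls and 0.328% to 1.26% in negative controls. The positive control of experiment 11 was far above the others at 2.41%, the next being experiment 9 at 0.918%. In that library G40T was 0.884% (interval 0.760% to 1.03%) and G39T 0.726% (interval 0.615% to 0.857%), while its negative control had 0.591% in these columns. The positive control of experiment 11 was also the highest in the share with at least 1 mismatch (5.47%) and with 2-3 mismatches (0.805%), and had the most distinct alleles, 252.

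Among negative controls the libraries, 1 for each brood, spread more widely in the share with at least 1 mismatch than read sampling alone would give, and brood and library cannot be told apart. The share was 1.56% (interval 1.45% to 1.68%) in experiment 14 and 2.93% (interval 2.70% to 3.17%) in experiment 4. Over the 16 libraries the chi-square per degree of freedom was 27.2, where sampling noise alone gives about 1. It was 6.97 for 1-mismatch reads in the columns within both reads, where libraries spanned 1.12% to 1.88%, and 35.8 in the columns within 1 read. For C23G it was 1.28 among negative controls. Forward and reverse negative controls did not differ beyond their spread in any of 8 measures (exact permutation tests, unadjusted p = 0.199 to 0.884). Of 15 single substitutions with at least 5 expected reads in the smallest library, 12 had a chi-square per degree of freedom above 2, led by G40T (33.3), G40A (12.6) and G39T (11.6), all at the end of the window.

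The 5 substitutions with the highest ratio of their top negative control to the median negative control differed in how far they stood out in 1 library. T36G reached 0.0508% in experiment 9 against a median of 0.00740%, and the next library had 0.0286%. G5T and C27A each reached 0.0531% in experiment 10, with 14 reads, and 0.0407% in experiment 9, against medians of 0.00949% and 0.0122%. In C to A as a whole, experiment 10 was the highest in both groups. Its positive control had 0.643% (group mean 0.248%) and its negative control 0.413% (group mean 0.216%). In G to T, experiment 11 was the highest among positive controls and experiment 8 among negative controls. G40T was high in experiments 8 (0.458%, interval 0.368% to 0.570%) and 9 (0.407%, interval 0.327% to 0.506%), against a median of 0.0916%, and G40A in experiments 8 (0.183%) and 3 (0.152%), against a median of 0.0364%. In the positive control of the brood of the top value, all 5 were below that value and above the positive control median. The positive control shares there were 0.00956% for T36G (median 0.00537%), 0.0381% for G5T (median 0.00865%), 0.0524% for C27A (median 0.0188%), 0.0854% for G40A (median 0.0520%) and 0.145% for G40T (median 0.0655%). The T36G share was 1 read, below the 0.0287% that 3 reads make in that library. The others rested on 8 reads for G5T, 11 for C27A, 10 for G40A and 17 for G40T. The alleles were picked as the highest negative controls, so a lower share in the positive control follows in part from the choice.

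**Figure D5:**
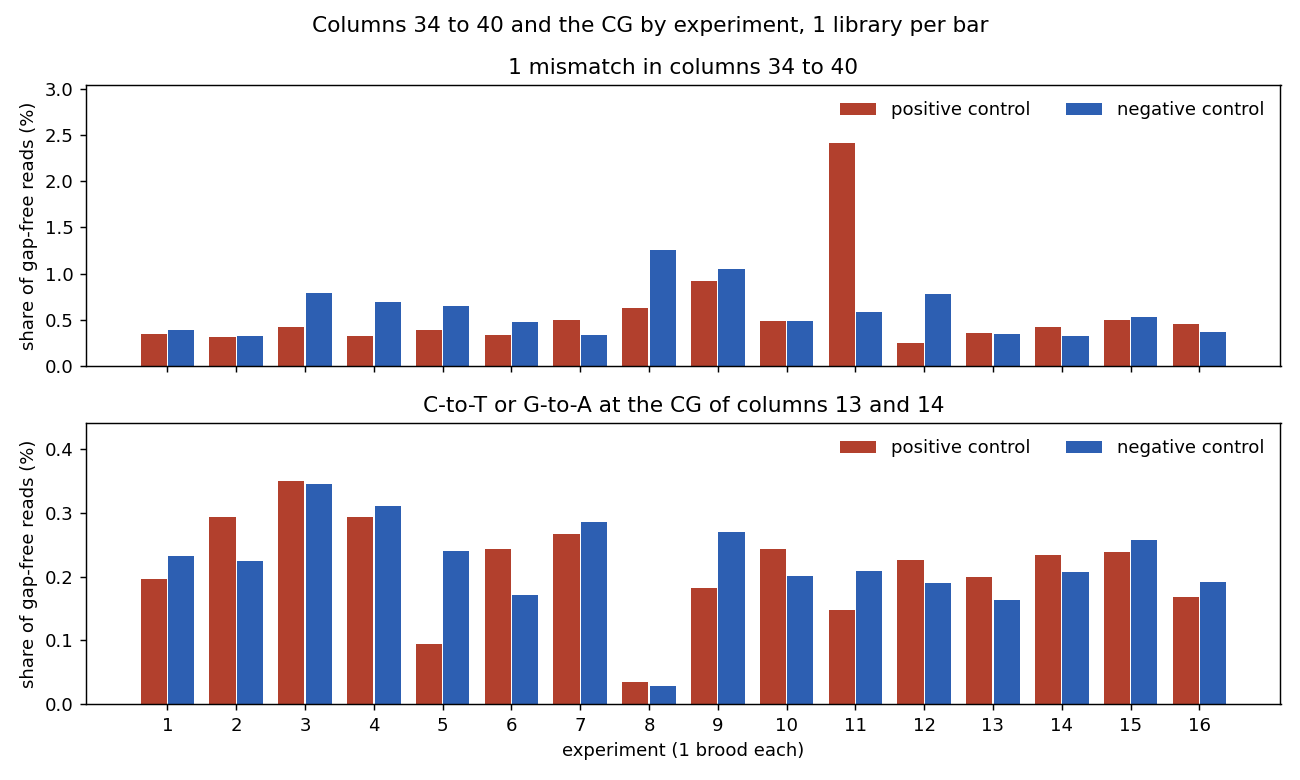
Share of gap-free reads (%) with 1 mismatch in columns 34 to 40 (upper panel) and with C13T or G14A at the CG of columns 13 and 14 (lower panel), in each of the 16 experiments, with the positive control bar left of the negative control bar. In the upper panel the positive control of experiment 11 reaches 2.41%, and in the lower panel both libraries of experiment 8 are the lowest of their groups, at 0.0342% in the positive control and 0.0286% in the negative control.

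The CG transitions C13T and G14A summed to 0.213% ± 0.0779 of gap-free reads in positive controls and 0.220% ± 0.0715 in negative controls (SD, n = 16 each). Experiment 8 had the lowest share in both groups, 0.0342% in its positive control and 0.0286% in its negative control, and experiment 3 the highest in both, 0.350% in its positive control and 0.345% in its negative control. Over 16 broods the levels of positive and negative controls went together, with Pearson's r = 0.710 (permutation p = 0.00388, adjusted over 8 measures p = 0.0310) and Spearman's rho = 0.468 (p = 0.0690). This rested on experiment 8. Without it r was 0.493 (p = 0.0603), and with experiment 3, next in distance from the median, left out as well, r was 0.253 (p = 0.387). The measure was chosen after seeing the data. For the share with at least 1 mismatch, the libraries of a brood had r = 0.173 (p = 0.520) and rho = 0.321 (p = 0.226), and without experiments 4 and 8 r = 0.174 (p = 0.513). No other measure reached an adjusted p under 0.05.

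Among 1-mismatch reads, the types of change in negative controls were compared with their complements, since the same event on either strand gives one or the other. The types of a pair lie at different columns, and shares of 1 type varied by column. G to A had means of 0.109% at column 14, 0.0553% at column 26 and 0.00809% at column 5. All libraries share these columns, so the test shows that a difference recurs over libraries. It cannot tell strand from column. Per 100000 reference bases, G to T had 41.7 ± 22.4 reads and its complement C to A 18.03 ± 5.07 (SD, n = 16, two-sided sign-flip permutation test over broods, adjusted p = 0.000183, higher in 16 of 16). G to A had 37.6 ± 9.77 and C to T 25.5 ± 6.23 (adjusted p = 0.000183, higher in 15 of 16). In all, 5 of 6 pairs differed, the exception being A to G with T to C. The first difference lay in columns 34 to 40, which hold 3 of the 10 G and no C of the window. Over columns 1 to 33, G to T had 17.7 ± 9.37 and C to A 19.2 ± 5.20 (adjusted p = 0.435). The second kept its direction there, with 36.7 ± 7.44 for G to A and 26.5 ± 6.28 for C to T (adjusted p = 0.000366), and also with the CG columns left out, 24.5 ± 6.67 and 19.1 ± 3.91 (adjusted p = 0.0249). Over columns 1 to 33, 2 of 6 pairs passed, the other being A to G with T to C, with 11.7 ± 2.98 and 16.2 ± 3.61 (adjusted p = 0.00568).

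Mismatches of the same read came together more often than single ones would by chance placement. If mismatches fell independently, 2-3 mismatches would be expected in 0.0247% of gap-free reads in positive controls and in 0.0185% in negative controls. The observed shares were 9.51 ± 3.88 times this in positive controls and 10.4 ± 2.80 times this in negative controls. Of these reads, 28.8% in positive controls and 33.2% in negative controls had all mismatches in columns 34 to 40. Alleles with 2-3 mismatches were named by their mean in positive controls and were not ranked in negative controls. Of the 5 named, those also seen in negative controls were G37T_G39T, A35T_G37T and G37T_G40T. G37T_G39T had 28 reads in 11 positive controls and 53 reads in 16 negative controls. A35T_G37T had 15 reads in 9 positive controls and 21 reads in 11 negative controls. G37T_G40T had 18 reads in 6 positive controls and 13 reads in 7 negative controls.

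The share with 4 or more mismatches was set against the share of reads with a gap across the 16 positive controls. Pearson's r was 0.535 (permutation p = 0.0339, or 0.0598 adjusted over 3 measures). Spearman's rho was 0.600 (permutation p = 0.0156, or 0.0468 adjusted). With experiments 5 and 10, whose gap shares lay farthest from the median, left out, r was 0.386 (p = 0.176) and rho 0.521 (p = 0.0592). Without experiment 8, whose positive control had 0 such reads, r was 0.781 (p = 0.0007) and rho 0.811 (p = 0.0005), an alternative chosen after seeing the data. In the 12 forward experiments r was 0.323 (p = 0.309), and the 4 reverse experiments were too few for a value. Taken out of all aligned reads, the share gave r = 0.292 (p = 0.275), and 0.554 (p = 0.0332) without experiment 8. The gap-free denominator shrinks as the share with a gap grows, which enters the first value and not the last. For C23G, r was 0.437 (p = 0.0399, or 0.0598 adjusted) and rho was 0.529 (p = 0.0370, or 0.0555 adjusted). With experiments 5 and 10 left out its r was 0.379 (p = 0.139), and without experiment 8 it was 0.568 (p = 0.0270).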

How the data were processed

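Genomic DNA was amplified around the Mr-cofilin site and sequenced on a MiSeq (2 reads of 150 bp per pair). Per the methods, the authors aligned reads to the amplicon with CRISPResso2, whose version, quality filter and handling of read pairs are not given in the sources used here. The deposited tables hold a read count for each allele over 40 aligned columns, not normalized, 1 table per library and window. Errors of PCR and sequencing stay in these counts, and the aligner can write a replaced stretch as substitutions or as a gap. The 32 tables of the wider window were used, and the narrower ones as an alternative.

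Shares were taken out of gap-free reads. An N in a read was set to the reference base (2 reads). Groups came from the sample titles. Positive and negative controls were compared over libraries by permuting their labels and taking the difference of means as the statistic, two-sided (100000 resamples, seed 1; exact enumeration under 10 libraries) and Benjamini-Hochberg adjustment within each family, at a threshold of 0.05. The tests were tried on simulated tables. Experiment numbers pair libraries, since the methods state that each experiment used eggs of a single female, and the libraries of a pair correlated at r = 0.173 in their share with at least 1 mismatch. A sign-flip test with the experiment as a block was an alternative, beside other windows, read minimums, denominators and scales, and each experiment left out. Named alleles were the 10 most frequent single substitutions in negative controls, those past the threshold (up to 10), 5 with the highest ratio of top to median negative control and at least 10 reads in the top library, and 5 each with 2-3 and with 4 or more mismatches; columns and types past the threshold were named too. Members, lists and tests were chosen with earlier results of these data known. The tools were pandas 2.3.3, SciPy 1.17.1 and NumPy 2.4.6 under Python 3.11.15, with figures drawn in Matplotlib 3.10.9.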

Additional observations from a re-analysis of the deposited data

Results flagged for a closer look

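Within the 4 reverse experiments, 2 of 16 sets of libraries held a library far from the other 3. Among positive controls, experiment 4 was the highest in the share of gap-free reads with 2-3 mismatches, at 0.262%. Among negative controls, experiment 4 was the highest in the share with 1 mismatch in the columns within both reads, at 1.88%. Chance marks about 1 in 20 such sets. The groups of 12 forward and of all 16 libraries are above the size to which this rule was applied. The difference between positive and negative controls did not itself differ between forward and reverse experiments in any of 8 measures past the threshold (exact permutation tests, lowest unadjusted p = 0.223).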

How the results depend on the processing

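With the experiment as a block (replicate block), the difference in the share with at least 1 mismatch was 0.873 points (sign-flip p = 0.000183), and the block changed no call named in the report. Leaving out each experiment in turn gave 0.703 to 0.957 points for that share, 0.540 to 0.619 points for 4 or more mismatches and 0.138 to 0.203 points for C23G, and changed no call. For 1 mismatch it gave 0.133 to 0.326 points and for 2-3 mismatches -0.00556 to 0.0535 points, both lowest without experiment 11.

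The denominator changed most. Out of all aligned reads, the share with at least 1 mismatch differed by -0.347 points (p = 0.0776) and reads with 1 mismatch by -0.610 points (adjusted p = 0.0006), since reads with a gap then enlarge the denominator of positive controls. Calls under this setting were 2 of 3 classes, 10 of 12 types, 24 of 40 columns, 3 of 4 zones and 23 of 120 alleles. The share of any gap-free allele falls here as reads with a gap are added, so these counts reflect the denominator as well as the substitutions. C23G and 4 or more mismatches stayed higher in positive controls and called, and the correlation of that class with the gap share was 0.292.

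With mismatches recounted in the 20 columns nearest the cut, 3 of 3 classes passed, with differences of 0.272 points for 1 mismatch and 0.0442 points for 2-3 mismatches. Without the outermost 2 columns on each side, 2 classes passed, with 0.271 points for 1 mismatch. Counting mismatched bases of all gap-free reads, the inverted stretch included, 4 types, 6 columns and 2 zones passed.

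The reverse tables alone gave 0.469 points for at least 1 mismatch and 0.496 points for 4 or more, and 0 calls in any family, where the smallest p of 4 against 4 libraries is 0.0286 before adjustment. Without alleles of 4 or more mismatches the share with at least 1 mismatch differed by 0.296 points (p = 0.183). The following alternatives were chosen after seeing the data. Without the inverted stretch that share differed by 0.323 points, and without C23G too by 0.130 points. Without the inverted stretch 0 classes passed, and 4 or more mismatches differed by 0.0265 points. Without C23G 0 types and 0 zones passed. Of the 6 complementary pairs, 3 passed in the forward and 0 in the reverse negative controls, 2 without columns 34 to 40 and 2 without columns 13 and 14 as well. In those last settings C to A minus G to T turned to 1.47 and 2.55 per 100000 bases.

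Depth limits what can be said of rare single substitutions, since 3 reads are up to 0.0315% of a positive control library. Read pairs, quality and the aligner's choice between gap and substitution could not be varied here.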
